A study of Arabidopsis thaliana with 4 samples.

Results

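The nuclear genes for the proteins that collect light and carry out its first conversion in the chloroplast were followed from air to ethylene, together with the GLK1 and GLK2 transcription factors. A list of loci defined them: the LHCA and LHCB antenna genes, nuclear genes for subunits of photosystem I (PSA) and photosystem II (PSB), and the GLK pair. All 44 loci were found, in 43 of the 33538 entries of the deposited gene table, because LHCB1.1 and LHCB1.2 share an entry. All 43 entries were tested by the authors, among 20786 tested entries that name a gene.

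Transcript levels came from RNA sequencing of Arabidopsis thaliana seedlings in the Col background, and every library, the air controls included, carried the srt1srt2 mutant genotype. SRT1 and SRT2 encode sirtuins, a family of NAD-dependent deacetylases. Seedlings grew in darkness for 3 days at 24 °C and were then exposed for 4 hours to hydrocarbon-free air, either alone or with ethylene at 10 ppm, with 2 libraries per treatment. RNA came from seedlings with no dissection named, and nothing in the labels tells if a treatment's libraries stem from separate plantings, so the spread behind the p-values may be technical. The table's own sheet title names srt1 alone, and the labels were followed. No wild type was analysed here, so whether the sirtuin mutations bear on any change below was not tested.

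Light-harvesting proteins bind chlorophyll and carotenoids in the thylakoid membrane and pass excitation energy to a photosystem, LHCA proteins to photosystem I and LHCB proteins to photosystem II. Their genes, like those of the nuclear photosystem subunits, are strongly raised by light, and a dark-grown seedling holds etioplasts in place of green chloroplasts. GLK1 and GLK2 (GOLDEN2-LIKE) are GARP-family factors that activate many of these genes in developing chloroplasts.

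Of the 43 entries, 16 were lower in ethylene and 0 were higher at a q of 0.05 or less in the authors' deposited table, whose q is a Benjamini-Hochberg adjustment of the Cuffdiff p-value over all tested entries. At that q, 6.50% of all tested entries naming a gene were called lower and 4.79% were called higher. At an unadjusted p under 0.05 the number of members lower was 25. The share of all tested entries at that unadjusted p was not taken, so this count has no background. All 43 entries had a lower value in ethylene, whether called or not, against 49.0% of all tested entries. Most members are abundant, so the share was also taken among the 1615 entries at a mean of 100 FPKM or more (fragments per kilobase, corrected for how many fragments mapped), a background chosen after the values were seen. There, 14.5% of all entries were called lower and 48.0% had a lower value, against 13 called and 37 lower of the 37 members at that level. Each level is 1 value pooled by the authors over both libraries of a treatment, so no spread between libraries can be shown.

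The median change, as log2((ethylene FPKM + 1)/(air FPKM + 1)), was -0.37 over the 43 entries and 0.0078 over all tested entries naming a gene. The changes ran from -1.61 at LHCB1.4 to -0.05 at LHCB1.3. Summed over the entries, the level went from 26263 FPKM in air to 20338 in ethylene, 22.6% lower. As a share of the summed FPKM of entries naming a gene, the members held 2.80% in air and 2.18% in ethylene. In whole seedlings, fewer cells of a type and less RNA per cell cannot be told apart. Fewer members passed when p was taken from the deposited statistic read as a standard normal value: 7 of the 43 were then called lower, against 3.20% of all tested entries.

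**Figure D1:**
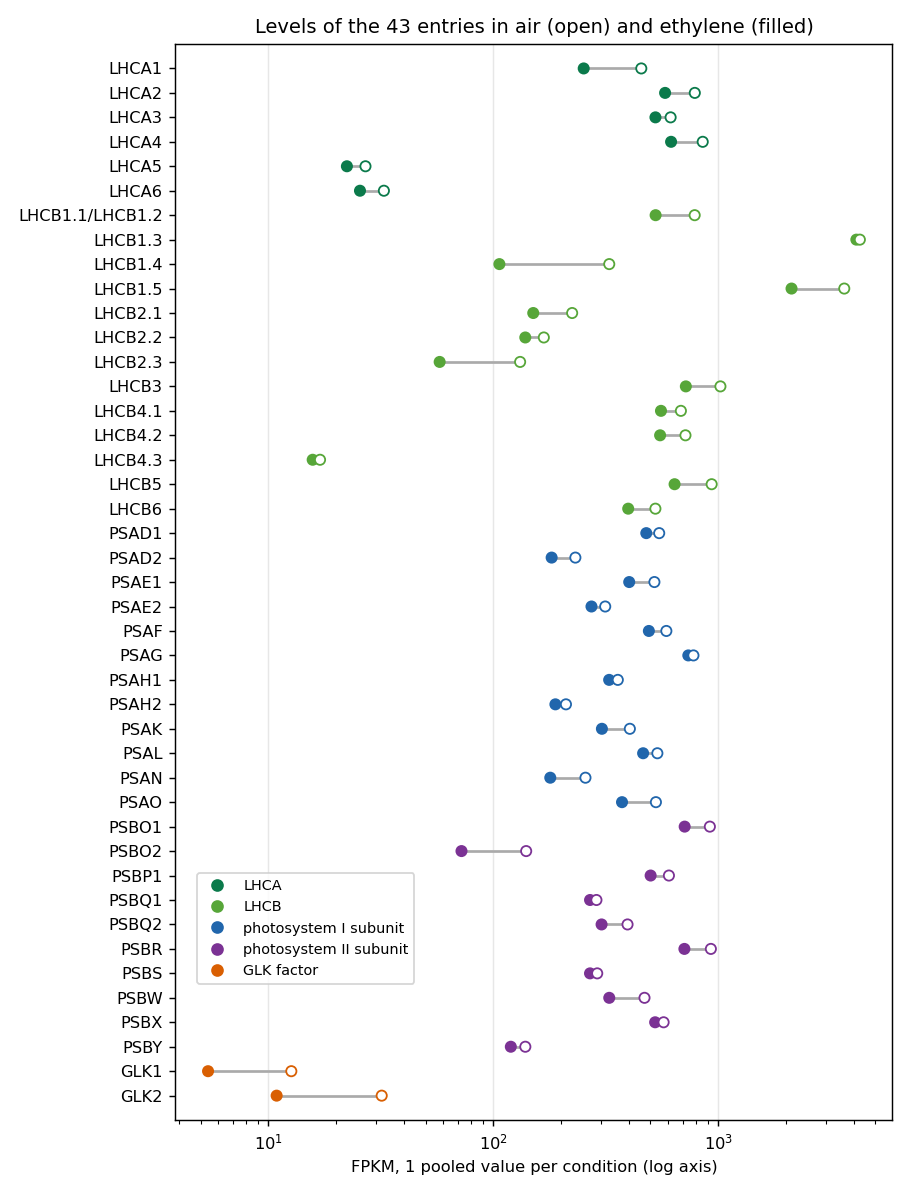
FPKM of each of the 43 entries in air (open circles) and in ethylene (filled circles) on a log axis, 1 pooled value per condition, coloured by class. Every filled circle lies left of its open circle, with the widest gaps at LHCB1.4, LHCB2.3, PSBO2 and the GLK factors, while LHCB1.3 moved only from 4262 to 4112 FPKM.

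GLK1 and GLK2, the regulators among the members, were among the least abundant and fell together. The level of GLK1 (AT2G20570, chromosome 2, 8855302 to 8857758, plus strand, TAIR10.1 coordinates here and below) went from 12.7 to 5.40 FPKM. That is a 2.34-fold fall, a log2 ratio of -1.23 ± 0.32 (standard error, taken as the ratio over the deposited statistic), with a q of 0.000878 in the authors' deposited table. GLK2 (AT5G44190, chromosome 5, 17798262 to 17800926, plus strand) had 31.9 FPKM in air against 10.9 in ethylene. It fell 2.93-fold, a log2 ratio of -1.55 ± 0.27, with a q of 0.000878 in the authors' deposited table. This q belongs to the smallest p that the table holds, 5e-05, which 1200 tested entries and 8 members share, so entries at that limit have no order by p. The pair together went from 44.6 to 16.3 FPKM, 63.5% lower. Their log2 ratios differed by -0.32 ± 0.42, GLK2 minus GLK1, which is less than its own standard error.

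The LHCA proteins form the antenna belt of photosystem I, and 3 of their 6 genes were called lower. Of all tested entries naming a gene 6.50% were called lower, and of those at a mean of 100 FPKM or more 14.5%. The difference was not tested. LHCA1 had 455 FPKM in air against 252 in ethylene, the lowest of LHCA1 to LHCA4 in both conditions. It fell 1.80-fold, with a log2 ratio of -0.85 ± 0.21 and a Cuffdiff q of 0.000878 in the authors' deposited table. LHCA4, which pairs with LHCA1 in the complex, was the highest of the class with 853 FPKM in air against 617 in ethylene. Its fall was 1.38-fold, a log2 ratio of -0.47 ± 0.21, at a Cuffdiff q of 0.0133 in the authors' deposited table. LHCA2 went from 787 to 581 FPKM, 1.36-fold lower, with a log2 ratio of -0.44 ± 0.20 and a Cuffdiff q of 0.0256 in the authors' deposited table. LHCA3, the usual partner of LHCA2, had 614 FPKM in air against 526 in ethylene and did not pass (log2 ratio -0.22 ± 0.21, q 0.429 in the authors' deposited table). The log2 ratio of LHCA1 minus that of LHCA3 was -0.63, with a standard error of 0.29 if both errors are independent. LHCA5 and LHCA6 are rare subunits that link photosystem I to the NDH complex of cyclic electron flow, and both were at a small part of the level of the main LHCA genes. LHCA5 was the lowest of the class, with 27.0 FPKM in air against 22.4 in ethylene (log2 ratio -0.27 ± 0.30, q 0.529 in the authors' deposited table). LHCA6 was at 32.7 and 25.6 FPKM (q 0.254 in the authors' deposited table). The class summed to 2770 FPKM in air and 2025 in ethylene, 26.9% lower, with a median change of -0.39.

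The LHCB genes held the largest part of the signal and 7 of their 13 entries were called lower. The share called lower was 6.50% of all tested entries naming a gene and 14.5% of those at a mean of 100 FPKM or more. Their sum went from 13432 to 10091 FPKM, 24.9% lower, with a median change of -0.51. Of the entries for LHCB1, LHCB2 and LHCB3, whose products form the trimers of the major antenna LHCII, 6 of 8 were called lower, with a median change of -0.57. Of those for the monomeric linker proteins LHCB4 (CP29), LHCB5 (CP26) and LHCB6 (CP24), 1 of 5 was called lower, with a median change of -0.37. All 5 had a lower value in ethylene. The summed levels of the groups were lower by 24.9% and 24.8%. The difference in the share called between these groups, or of either from the shares of all entries, was not tested.

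**Figure D2:**
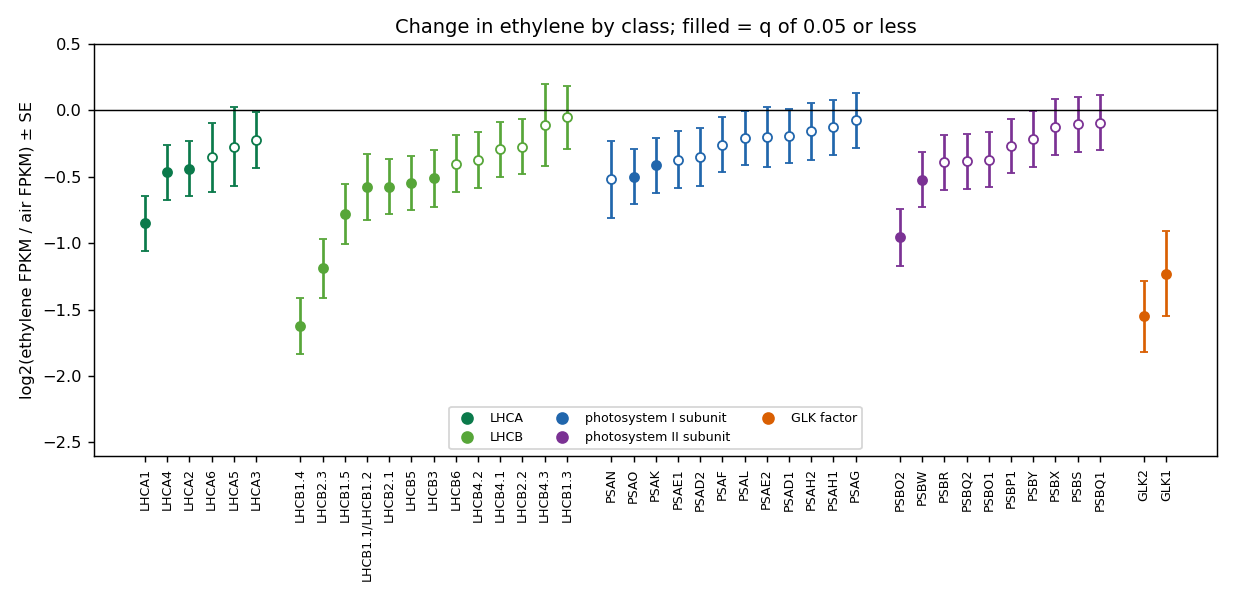
Log2 ratio of ethylene to air FPKM for the 43 entries by class, with bars of 1 standard error taken from the deposited statistic and filled points for a q of 0.05 or less. All points lie below 0, from -1.62 at LHCB1.4 to -0.05 at LHCB1.3, and filled points occur in all 5 classes.

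The LHCB1 copies ranged from the smallest to the largest change of all members. LHCB1.3 (AT1G29930), also known as CAB1, was the most abundant member. Among tested entries naming a gene, it was at rank 11 in air and 12 in ethylene. Its level was 4262 FPKM in air and 4112 in ethylene, a log2 ratio of -0.05 ± 0.24 and a q of 0.925 in the authors' deposited table. LHCB1.5 (AT2G34420) was nearly as high in air at 3633 FPKM and was at 2118 in ethylene, moving from rank 13 to rank 21 of the same entries. It fell 1.72-fold, a log2 ratio of -0.78 ± 0.23, with a Cuffdiff q of 0.000878 in the authors' deposited table. LHCB1.4 (AT2G34430) had 328 FPKM in air against 107 in ethylene. Its 3.08-fold fall was the largest of all members, a log2 ratio of -1.62 ± 0.21 with a Cuffdiff q of 0.000878 in the authors' deposited table. The shared entry of LHCB1.1 (AT1G29920) and LHCB1.2 (AT1G29910) went from 786 to 527 FPKM. This was a 1.49-fold fall, a log2 ratio of -0.58 ± 0.25, at a Cuffdiff q of 0.0103 in the authors' deposited table. The log2 ratio of LHCB1.4 minus that of LHCB1.3 was -1.57 ± 0.32 (standard error). For LHCB1.5 minus LHCB1.3 it was -0.73 ± 0.33, and for the shared entry minus LHCB1.3 it was -0.53 ± 0.34. These errors treat the entries as independent and no test was made of the gaps.

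The LHCB1 family summed to 9009 FPKM in air and 6864 in ethylene, 23.8% lower. LHCB1.3 supplied 47.3% of it in air and 59.9% in ethylene, a larger part of a smaller pool. LHCB1.5 went from 40.3% to 30.9% of the pool and LHCB1.4 from 3.64% to 1.55%. The genes lie in a pair of clusters. On chromosome 1, LHCB1.1 lies 1153 bases from LHCB1.2 and 1915 bases from LHCB1.3. On chromosome 2, LHCB1.4 (14524607 to 14525918, plus strand) and LHCB1.5 (14522524 to 14523568, minus strand) run away from each other, with 1038 bases between their starts. All 5 genes have a single exon in the first RefSeq transcript model.

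The starts of the LHCB1 coding sequences show how close these copies are, which limits how far short reads can be assigned to 1 of them. The first 60 coding bases are given 5′ to 3′ from the RefSeq TAIR10.1 genome, with capitals where the aligned base differs from LHCB1.3.
LHCB1.1: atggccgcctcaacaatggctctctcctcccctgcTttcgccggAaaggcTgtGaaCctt
LHCB1.2: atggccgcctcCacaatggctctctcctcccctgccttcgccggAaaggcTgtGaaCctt
LHCB1.3: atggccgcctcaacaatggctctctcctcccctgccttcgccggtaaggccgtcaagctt
LHCB1.4: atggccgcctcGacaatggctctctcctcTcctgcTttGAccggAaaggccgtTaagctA
LHCB1.5: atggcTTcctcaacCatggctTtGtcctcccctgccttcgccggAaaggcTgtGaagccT
LHCB1.1 and LHCB1.2 each differ from LHCB1.3 at 5 of these bases, LHCB1.4 at 8 and LHCB1.5 at 9, where the alignment also holds a gap. Over the whole coding sequence LHCB1.1 and LHCB1.3 were 96.1% identical, with 119 bases in a row the same. LHCB1.4 and LHCB1.5 were 91.4% identical, with a run of 122 bases, while LHCB1.3 matched LHCB1.4 at 86.7% and LHCB1.5 at 89.3% of aligned bases. Between 16.6% and 34.3% of the 50-base windows of each LHCB1 copy occur unchanged in another copy. Levels of single LHCB1 copies are therefore uncertain where the authors' counting could split shared reads, and how such reads were treated is not given in the sources used here.

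LHCB2, the other protein of the trimer that takes part in state transitions, has 3 copies, of which 2 were called lower. LHCB2.3 (AT3G27690, chromosome 3, 10255906 to 10257489, plus strand) had 132 FPKM in air against 57.8 in ethylene. It fell 2.28-fold, a log2 ratio of -1.19 ± 0.22, with a Cuffdiff q of 0.000878 in the authors' deposited table. LHCB2.1 (AT2G05100) fell from 224 to 151 FPKM, 1.49-fold, a log2 ratio of -0.57 ± 0.21 with a Cuffdiff q of 0.000878 in the authors' deposited table. LHCB2.2 (AT2G05070) had 168 FPKM in air against 139 in ethylene and did not pass (log2 ratio -0.27 ± 0.21, q 0.274 in the authors' deposited table). The family sum went from 524 to 347 FPKM, 33.7% lower, and the part of it held by LHCB2.3 from 25.1% to 16.6%. The log2 ratio of LHCB2.3 minus that of LHCB2.2 was -0.91 ± 0.30 (standard error). For LHCB2.1 minus LHCB2.2 it was -0.30 ± 0.29.

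The same stretch of the LHCB2 genes shows why LHCB2.3 is the copy best told apart, with capitals where the base differs from LHCB2.2.
LHCB2.1: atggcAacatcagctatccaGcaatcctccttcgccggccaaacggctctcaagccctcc
LHCB2.2: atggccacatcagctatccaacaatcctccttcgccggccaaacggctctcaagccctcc
LHCB2.3: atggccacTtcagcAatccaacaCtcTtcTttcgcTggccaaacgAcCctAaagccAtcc
LHCB2.3 differs from LHCB2.2 at 10 of these 60 bases and LHCB2.1 at 2. Over the coding sequence LHCB2.1 and LHCB2.2 were 96.6% identical with a run of 152 bases, and 41.1% of the 50-base windows of either occur in the other. LHCB2.3 shared 0 such windows with its copies and was 84.4% identical to LHCB2.2, so its fall does not rest on coding windows of that length held in common. LHCB2.1 and LHCB2.2 lie on chromosome 2 on the same strand, with 22517 bases between them.

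**Figure D3:**
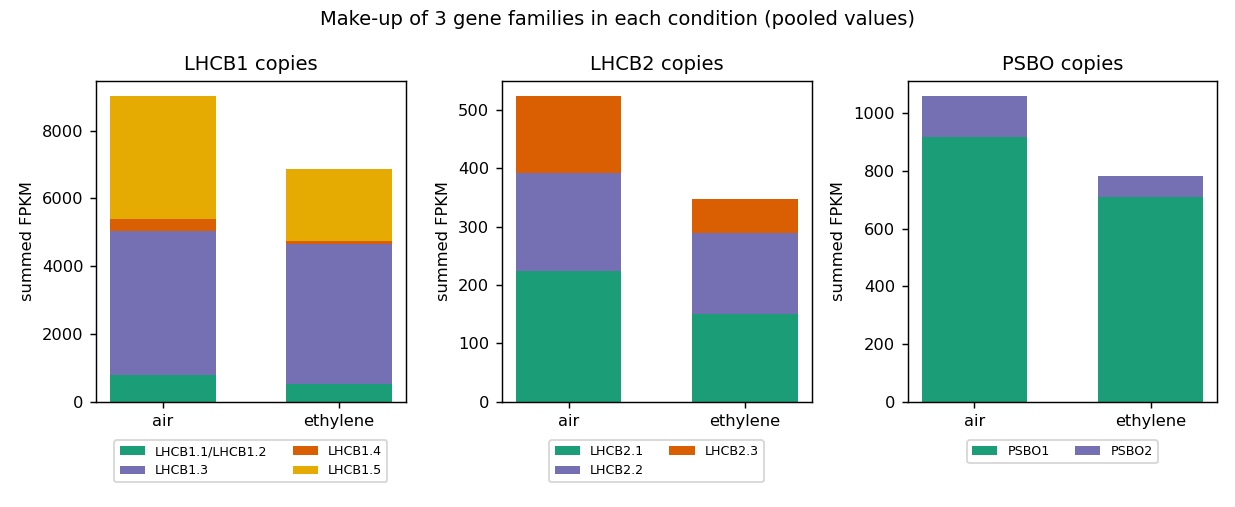
Summed FPKM of the LHCB1, LHCB2 and PSBO copies in air and ethylene, stacked by copy, 1 pooled value per condition. The LHCB1 stack went from 9009 to 6864 FPKM with the LHCB1.3 layer nearly the same height, while the LHCB2.3 part of its stack went from 25.1% to 16.6% and the PSBO2 part from 13.2% to 9.24%.

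LHCB3, the third protein of the trimer, had 1023 FPKM in air against 718 in ethylene. It fell 1.42-fold, a log2 ratio of -0.51 ± 0.21, with a Cuffdiff q of 0.00657 in the authors' deposited table. Among the monomeric proteins, LHCB5 fell from 935 to 640 FPKM, 1.46-fold, with a log2 ratio of -0.55 ± 0.21 and a Cuffdiff q of 0.00366 in the authors' deposited table. LHCB6 had 526 FPKM in air against 398 in ethylene, with a q of 0.0682 in the authors' deposited table. LHCB4.1 was at 683 and 557 FPKM and LHCB4.2 at 715 and 552, with q values of 0.207 and 0.0765 in the authors' deposited table. The LHCB4.1 entry also names a neighbouring locus, AT5G01520. LHCB4.3 was the lowest LHCB gene, with 17.0 FPKM in air against 15.8 in ethylene (log2 ratio -0.11 ± 0.31, q 0.863 in the authors' deposited table).

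Subunits of photosystem I, which drives electrons from plastocyanin to ferredoxin, had the smallest median change of the 5 classes. Of the 12 genes, 2 were called lower, beside 14.5% of all entries at a mean of 100 FPKM or more, and the difference was not tested. The sum went from 5273 to 4402 FPKM, 16.5% lower, with a median change of -0.23. PSAO, a small subunit near the docking site for mobile LHCII, had 529 FPKM in air against 374 in ethylene. It fell 1.41-fold, a log2 ratio of -0.50 ± 0.21, with a Cuffdiff q of 0.00714 in the authors' deposited table. PSAK, a membrane subunit on the antenna side of the core, fell from 405 to 304 FPKM, 1.33-fold, with a log2 ratio of -0.41 ± 0.21 and a Cuffdiff q of 0.0407 in the authors' deposited table. PSAN, a lumenal subunit near the plastocyanin site, was at 257 and 179 FPKM, 1.43-fold lower. Its standard error was wider (log2 ratio -0.52 ± 0.29), and its q was 0.0907 in the authors' deposited table. PSAG, which helps hold the antenna belt, was the highest of the class with 776 FPKM in air against 736 in ethylene (log2 ratio -0.08 ± 0.20, q 0.854 in the authors' deposited table). PSAH2 had the lowest mean over both conditions, at 211 FPKM in air, the lowest of the class there, and 189 in ethylene, where PSAN and PSAD2 were lower (log2 ratio -0.16 ± 0.21, q 0.646 in the authors' deposited table). The 10 genes that did not pass, which include the ferredoxin-side subunits PSAD and PSAE, the plastocyanin-side PSAF and the LHCII-docking PSAH and PSAL, were between 1.05-fold and 1.43-fold lower. Their q values in the authors' deposited table ran from 0.0907 to 0.854. PSAD1 supplied 70.2% of the PSAD sum in air and 72.5% in ethylene, PSAE1 62.3% and 59.5% of the PSAE sum, and PSAH1 63.0% and 63.4% of the PSAH sum. The PSAD2 entry also names a second locus, AT1G03140.

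Photosystem II oxidises water with the help of extrinsic proteins on its lumenal face, and 2 of the 10 genes of the class were called lower. Among all entries at a mean of 100 FPKM or more, 14.5% were called lower, and the difference was not tested. The sum went from 4744 to 3804 FPKM, 19.8% lower, with a median change of -0.32. PSBO, the protein that stabilises the manganese cluster, is made by 2 genes. PSBO2 (AT3G50820, chromosome 3, 18890874 to 18892508, minus strand), the minor copy, had 140 FPKM in air against 72.3 in ethylene. It fell 1.94-fold, a log2 ratio of -0.96 ± 0.21, with a Cuffdiff q of 0.000878 in the authors' deposited table. PSBO1, the major copy, was at 918 and 709 FPKM, 1.29-fold lower (log2 ratio -0.37 ± 0.21, q 0.0839 in the authors' deposited table). The PSBO2 share of the pair went from 13.2% to 9.24%, and its log2 ratio minus that of PSBO1 was -0.58 ± 0.30. These copies were 83.4% identical over the coding sequence and shared 0 windows of 50 bases.

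PSBW, a small membrane protein that steadies the supercomplex of photosystem II and its antenna, fell from 470 to 328 FPKM. The fall was 1.43-fold, a log2 ratio of -0.52 ± 0.20, with a Cuffdiff q of 0.00302 in the authors' deposited table. PSBR, which helps bind the extrinsic proteins, had 928 FPKM in air against 707 in ethylene and did not pass, with a log2 ratio of -0.39 ± 0.21 and a q of 0.0630 in the authors' deposited table. PSBY, a small membrane subunit, had 139 FPKM in air against 120 in ethylene (log2 ratio -0.21 ± 0.21, q 0.455 in the authors' deposited table). PSBS, the sensor of excess light, was at 290 and 269 FPKM, with a q of 0.772 in the authors' deposited table. The 8 genes of the class that did not pass were between 1.07-fold and 1.31-fold lower. Their q values in the authors' deposited table ran from 0.0630 to 0.813. The extrinsic proteins PSBP1 and PSBQ1 were among them, at q values of 0.261 and 0.813 in the authors' deposited table.

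Across classes, the 27 entries that did not pass all had lower values in ethylene, with changes from -0.05 to -0.52 and a median of -0.26. Of them, 9 had an unadjusted p under 0.05, a count with no share of all tested entries beside it. Over the 41 entries other than the GLK factors, the log2 level in air and the log2 ratio had a Pearson r of -0.0078 and a Spearman rho of -0.08, a description across genes that share the same libraries. The air level enters both measures, so these values do not show whether the change depends on level. Of the member entries, 14 lie in a span that another entry shares, and the highest such neighbour, in the span of LHCB1.1 and LHCB1.2, had 32.7 FPKM in air.

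The promoters of the members were searched for short motifs known from light-regulated plant genes. The windows ran from 250 bases before to 50 bases after the RefSeq gene start, a start that can lie upstream of the one in the authors' annotation. Both strands were searched. The I-box, an element of many light-regulated promoters, was searched as GATAAG. The G-box, which PIF and HY5 factors bind, was searched as CACGTG. A sequence linked to GLK targets was searched as CCAATC, and a binding sequence of GARP-family factors as AGATTC. The core of the sites of EIN3, the main transcription factor of ethylene signalling, was searched as ATGTA. Matches to different motifs may share bases. Over the 42 loci without the GLK factors, GATAAG was present in 17, or 40.5%, against 14.6% of 27443 protein-coding genes. CACGTG was present in 14, or 33.3%, against 7.68% of all. CCAATC was in 15, or 35.7%, against 12.3%, and AGATTC also in 15, against 19.5%. ATGTA was in 24, or 57.1%, against 56.4% of all, so the EIN3 core letters were about as frequent as elsewhere. Among the 15 loci called lower, 5 held GATAAG, 7 held CCAATC, 4 held CACGTG, 6 held AGATTC and 11 held ATGTA. Among the 27 that did not pass, the numbers were 12, 8, 10, 9 and 13. The RefSeq start and the start of the deposited entry lie apart by unlike distances, as for PSBS, at 16870221 against 16871696. The windows of called and uncalled loci are therefore not all at like places. A match is a description of letters and not of a bound site.

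**Figure D4:**
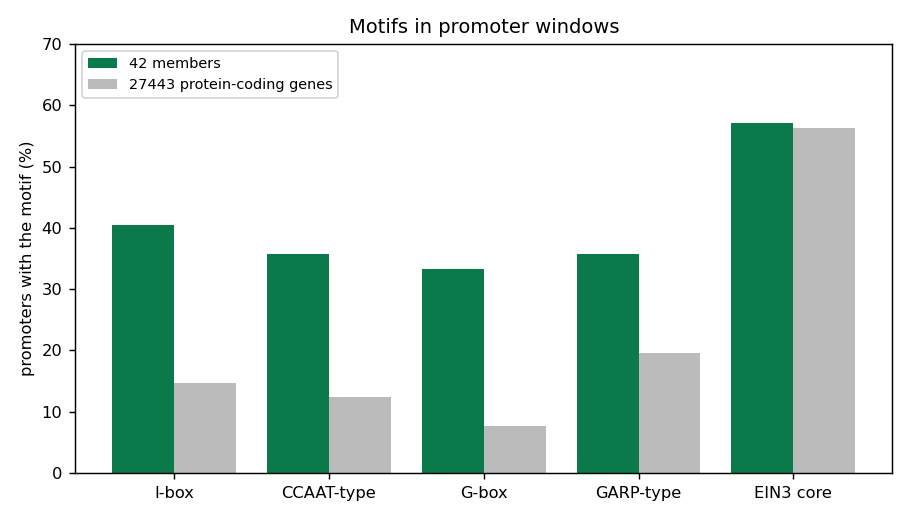
Percent of promoter windows that hold each motif on either strand, for the 42 loci without the GLK factors (green) and for 27443 protein-coding genes (grey). The I-box, CCAAT-type and G-box bars of the members stand at 40.5%, 35.7% and 33.3%, above the grey bars, while the EIN3 core bars are close at 57.1% and 56.4%.

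The 250 bases upstream of 5 antenna genes are shown because these genes span the range of response, from LHCB1.3, with the smallest change, to LHCB1.4, with the largest. They are from the RefSeq TAIR10.1 genome, 5′ to 3′ on the strand of the gene, and capitals mark the motif letters on either strand. LHCB1.3 is chr1:10477635-10477884 on the plus strand, LHCB1.5 is chr2:14523569-14523818 on the minus strand and LHCB1.4 is chr2:14524357-14524606 on the plus strand. LHCB2.3 is chr3:10255656-10255905 on the plus strand and LHCA1 is chr3:20341177-20341426 on the minus strand.
LHCB1.3: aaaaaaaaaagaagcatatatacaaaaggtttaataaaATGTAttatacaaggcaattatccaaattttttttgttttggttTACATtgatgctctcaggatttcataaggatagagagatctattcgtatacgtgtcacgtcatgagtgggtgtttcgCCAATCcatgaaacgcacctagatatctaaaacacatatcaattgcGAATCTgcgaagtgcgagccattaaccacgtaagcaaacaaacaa
LHCB1.5: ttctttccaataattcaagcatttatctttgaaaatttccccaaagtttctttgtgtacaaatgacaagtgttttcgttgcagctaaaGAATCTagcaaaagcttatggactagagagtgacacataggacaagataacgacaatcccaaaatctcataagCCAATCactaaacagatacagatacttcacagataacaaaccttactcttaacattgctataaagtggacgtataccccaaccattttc
LHCB1.4: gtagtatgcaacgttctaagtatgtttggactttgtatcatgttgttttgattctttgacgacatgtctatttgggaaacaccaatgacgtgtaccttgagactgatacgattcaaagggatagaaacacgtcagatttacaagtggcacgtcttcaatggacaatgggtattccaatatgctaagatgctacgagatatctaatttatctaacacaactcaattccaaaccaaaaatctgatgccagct
LHCB2.3: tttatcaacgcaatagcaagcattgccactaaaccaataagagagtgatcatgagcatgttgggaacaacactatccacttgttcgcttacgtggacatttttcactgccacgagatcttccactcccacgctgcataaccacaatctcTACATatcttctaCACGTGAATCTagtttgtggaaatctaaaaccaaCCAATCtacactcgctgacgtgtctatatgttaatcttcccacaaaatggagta
LHCA1: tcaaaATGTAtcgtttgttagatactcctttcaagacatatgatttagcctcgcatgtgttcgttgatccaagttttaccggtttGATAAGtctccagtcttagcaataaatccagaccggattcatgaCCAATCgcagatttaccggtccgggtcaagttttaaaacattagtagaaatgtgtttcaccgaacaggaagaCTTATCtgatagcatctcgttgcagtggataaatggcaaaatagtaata
LHCB1.3 and LHCB1.5 each hold CCAATC, starting at -91 and -89 from the RefSeq gene start, and AGATTC on the opposite strand at -45 and -162. These places are not counted from like starts. The LHCB1.3 start at 10477885 lies upstream of the start of its deposited entry at 10478005. For LHCB1.5, on the minus strand, the start at 14523568 is also where the entry begins. LHCB1.4 holds 0 of the motifs in this window, but its RefSeq start at 14524607 lies upstream of the start of its deposited entry at 14524756. The searched window ended at 14524656, so the bases between there and the entry start were not searched. LHCB2.3 holds a G-box at -88 whose last base is also the first of the AGATTC match on the opposite strand at -83. LHCA1 holds GATAAG at -165 and, on the opposite strand, at -49, with CCAATC at -121.

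Over 5 lists of other nuclear genes of the photosynthetic apparatus, 50 entries were tested. Of these, 4 were called lower and 1 higher in the authors' deposited table, beside 6.50% called lower and 4.79% called higher of all tested entries. A lower value in ethylene was seen for 38 of the 50, beside 49.0% of all tested entries. The difference from the members was not tested. Among 14 other photosystem and light-harvesting-like genes, 3 were called lower and 1 higher, with a median change of -0.29. A lower value was seen for 8 of the 14, and their summed level rose from 960 FPKM in air to 1015 in ethylene. PSB27, a factor of photosystem II assembly and repair, fell from 139 to 93.1 FPKM, 1.49-fold, with a Cuffdiff q of 0.00302 in the authors' deposited table. OHP1 (AT5G02120), a one-helix protein of photosystem II assembly, fell 1.73-fold from 61.5 to 35.6 FPKM at a q of 0.0238 in the authors' deposited table. ELIP1, an early light-induced protein, fell 1.70-fold from 19.2 to 11.3 FPKM at a q of 0.0263 in the authors' deposited table. LIL3:2, a light-harvesting-like protein that anchors geranylgeranyl reductase of chlorophyll synthesis, rose 1.36-fold from 350 to 476 FPKM at a q of 0.0213 in the authors' deposited table.

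Of 15 electron transport and ATP synthase genes, 1 was called lower, about the 6.50% called lower among all tested entries naming a gene. The median change was -0.15. The called gene was FNR2, a leaf ferredoxin-NADP reductase, which went from 49.6 to 34.0 FPKM with a Cuffdiff q of 0.00927 in the authors' deposited table. Of 7 genes for state transition and thylakoid shape, 5 for import and assembly of light-harvesting proteins and 9 tested regulators, 0 were called in either direction in the authors' deposited Cuffdiff table. The same held with the normal reference, and the median changes were -0.17, -0.24 and -0.11. The 20 plastid-encoded photosystem loci, in 19 entries, were listed at 0 in both conditions and untested, as were values for all 130 plastid and 141 mitochondrial entries, so the table gives no level for the reaction centre subunits made in the plastid.

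**Figure D5:**
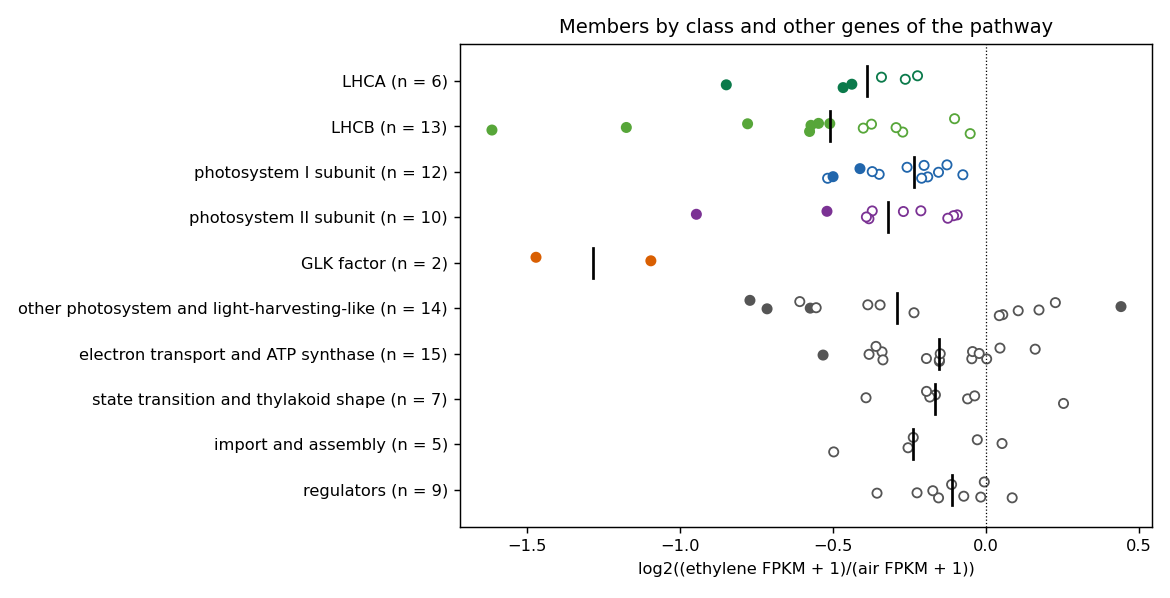
Change of each tested entry, log2((ethylene FPKM + 1)/(air FPKM + 1)), for the 5 member classes and 5 lists of other photosynthesis genes, with filled points for a q of 0.05 or less and bars at medians. Medians lie between -0.23 and -1.28 for the member classes and between -0.11 and -0.29 for the other lists.

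Most markers of root and shoot tissue did not pass the test, while those of the dark-grown state were called higher in the authors' deposited table, where 4.79% of all tested entries were called higher. Of 9 tested root markers, 2 were called higher and 0 lower, and 3 had a lower value in ethylene. Among all tested entries naming a gene, 49.0% had a lower value and 6.50% were called lower. Both called higher are genes of root hairs: EXPA7, an expansin, went from 10.8 to 27.1 FPKM, and COBL9, listed as SHV2, from 2.53 to 5.71. The summed level of the root list was 423 FPKM in air and 535 in ethylene, and the largest part of that gap was CASP1, a gene of the root endodermis, at 236 and 316 FPKM with a q of 0.110 in the authors' deposited table.

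Of 7 tested shoot and cotyledon markers, 1 was called lower and 0 higher, and 6 had a lower value in ethylene. The shares of all tested entries naming a gene were 6.50% called lower, 4.79% called higher and 49.0% with a lower value. The difference was not tested. The called gene was KNAT1, a homeobox gene of the stem and meristem, which went from 65.0 to 42.6 FPKM. Its q was 0.000878 in the authors' deposited table, and 0.0742 with p taken from the Cuffdiff statistic as a standard normal value. YAB3, a gene of the lower side of lateral organs, had a higher value in ethylene, 25.8 FPKM against 18.2 in air, with a q of 0.0624 in the authors' deposited table. The list summed to 190 FPKM in air and 157 in ethylene, and its meristem marker STM was at 4.36 and 3.94.

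All 4 genes listed as markers of the etiolated state were called higher in the authors' deposited table, of which 2 were also called with the normal reading of the Cuffdiff statistic. Those called both ways were HLS1 (18.6 to 41.1 FPKM), needed for the apical hook, and PIF3 (51.6 to 136), a repressor of greening in the dark. PORA (397 to 583 FPKM) and PORB (701 to 981), the enzymes that reduce protochlorophyllide in light, had q values of 0.000878 and 0.0259 in the authors' deposited table, and of 0.102 and 0.320 with the normal reading. Whether the rise of these 4 genes reflects the state of the seedlings or a response of the genes to ethylene was not tested. The part of tissue composition in the falls of the photosystem genes was not tested.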

How the data were processed

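RNA sequencing of 4 libraries, 2 in air and 2 in ethylene, was grouped by the labels. Per the submitters' processing notes, TopHat2 2.0.9 and Cuffdiff 2.2.1 were used with the TAIR10 build. Their parameters, the strand setting and the annotation were not stated in the labels or the header. The authors deposited 1 gene table with 1 pooled FPKM value per condition, a test statistic (a score), p-values and q-values, per the file headers. The deposited q equals Benjamini-Hochberg adjustment over 21076 tested entries to within 5.25e-07. Depth is unknown: in a search of the 2000 lowest values per condition, at best 14.2% in air and 14.7% in ethylene fell within 0.05 of a whole step, against 10% by chance. No interval that needs depth is given.

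A locus was matched to entries by the gene column, with repeats removed. Of 33538 entries, 776 name several genes and 324 name none. The deposited log2 fold column was not used, and ratios were recomputed from FPKM, with a pseudocount of 1 FPKM where stated. The normal quantile of the deposited p was a median of 1.43 times the deposited statistic over 17727 entries, so p and statistic are not on 1 normal scale. Standard errors are the log2 ratio over the deposited statistic, the wider reading, and an alternative took p from the statistic. The Benjamini-Hochberg code was tested on simulated data.

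Sequences and coordinates come from RefSeq TAIR10.1. All 26968 single-locus nuclear entries whose locus is annotated there overlap that gene, and all 44 member loci matched. Coding sequences of the first transcript model were aligned with MAFFT 7.526. Other tools were pandas 2.3.3, numpy 2.4.6, scipy 1.17.1 and matplotlib 3.10.9. The number of unused per-sample columns was 0.

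The members and the gene lists were chosen with earlier results of these data known, so lists are described by counts and medians with no list test. Full values are given for members called, for the highest and lowest of each class by mean FPKM and for the GLK factors. Of other lists, the called genes are named, and of the rest at most 3 per list.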

Additional observations from a re-analysis of the deposited data

How the results depend on the processing

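No paired analysis was possible because the table holds 1 pooled value per condition, with no replicate numbers. For the same reason no library could be left out. With the standard normal reference for the deposited statistic, members called lower numbered 7 in place of 16: 1 LHCA, 3 LHCB, 0 photosystem I, 1 photosystem II and both GLK factors. The calls lost were LHCA2, LHCA4, LHCB1.1/LHCB1.2, LHCB2.1, LHCB3, LHCB5, PSAK, PSAO and PSBW, and calls among other pathway genes went from 4 lower and 1 higher to 0 and 0. Requiring at least 1.5-fold gave 7 members: 1 LHCA, 3 LHCB, 0 photosystem I and 1 photosystem II, with 2 lower and 0 higher among other pathway genes. At a q of 0.01, members called numbered 12, with 1 LHCA, 1 photosystem I, and 2 lower and 0 higher other pathway genes; LHCA2, LHCA4, LHCB1.1/LHCB1.2 and PSAK lost their calls. The share of all tested entries called at 1.5-fold or at a q of 0.01 was not taken, so the counts at those settings have no background beside them. Both GLK factors were called under each of these settings. The median change stayed between -0.37 and -0.38 under other pseudocounts, a filter at 1 FPKM, centring and single-locus entries, and no member changed direction. These settings could not have changed a direction. The lowest member value was 5.40 FPKM, so the filter removed no member, and a pseudocount cannot reverse a ratio. Centring moved each change by only 0.0090, less than the smallest fall of -0.05. Among the tissue and dark-state markers, KNAT1, PORA and PORB lost their calls under the normal reference. The scale of p, the unknown depth and shared reads among LHCB1 and LHCB2 copies limit single calls.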
